A study of Mus musculus with 4 samples.

Results

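Milk-positive Saa-low cells were 6783 of 36162 cell barcodes, and 29.6% of the 22925 epithelial-gated barcodes, in single-cell RNA data from 4 mouse mammary tumours. A barcode was included when 4 sums of unique molecular identifiers (UMIs, counts of single captured transcripts) met set limits. It held at least 3 UMIs of the luminal genes Krt8, Krt18 and Epcam together and at most 1 of C1qa, C1qb, Col3a1 and Cdh5, which mark macrophages, fibroblasts and endothelium. It also held at least 3 UMIs of the milk genes Wap and Lalba and at most 1 of the serum amyloid A genes Saa1 and Saa2. The cells were thus selected on the measured UMIs of these 11 genes, so their levels are given as descriptions with no test. The cells were set against 9965 milk-negative epithelial cells, which passed the same epithelial gate with 0 UMIs of Wap and Lalba and any number of Saa UMIs. They were also set against 1543 milk-positive Saa-positive cells, which met the same milk gate but held at least 2 UMIs of Saa1 and Saa2.

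All mice were females of 13 to 14 weeks on an FVB background and carried 3 alleles together, MMTV-PyMT, K14Cre and Rosa-tdTomato. The MMTV promoter directs the polyoma middle T oncogene to mammary epithelium, while a keratin 14 promoter drives the Cre that switches on the red reporter. Tumour 1 joined several glands of mouse 1, tumour 2 was an inguinal tumour of mouse 2, and the thoracic tumour 3 and inguinal tumour 4 shared mouse 3. No mouse without the oncogene was analysed here. All comparisons were between cells of the same tumours, with the 3 mice as replicates and the counts of tumours 3 and 4 summed in each test.

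Alveolar luminal cells of the mammary gland make milk. Prolactin, through its receptor and the kinase Jak2, activates the transcription factor Stat5a, which acts with Elf5 on genes for caseins, whey acidic protein (Wap) and alpha-lactalbumin (Lalba), the regulatory subunit of lactose synthase. Serum amyloid A proteins belong to the acute phase response, and mammary epithelium can make them in inflammation and when milk is no longer removed.

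The libraries held 8434 to 9580 barcodes and 20281799 to 39370565 UMIs, with a median of 1922.5 to 3281 UMIs per barcode. Tumour 2 was the deepest and gave 58.4% of all milk-positive Saa-low cells. Pairs of libraries shared 96 to 129 barcode sequences, and 0 to 5 of these were milk-positive Saa-low in both. Scrublet called 2 of 36162 barcodes as doublets, which is too few for the caller to have worked, so no doublets were removed.

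The share of milk-positive Saa-low cells among epithelial-gated cells differed widely between tumours. It was 14.7% in tumour 1 (676 of 4610 cells, exact Clopper-Pearson 95% interval 13.7 to 15.7), 48.5% in tumour 2 (3960 of 8158, 47.5 to 49.6), 15.2% in tumour 3 (657 of 4312, 14.2 to 16.3) and 25.5% in tumour 4 (1490 of 5845, 24.4 to 26.6). The intervals cover counting error only. The mean over mice was 28.1% ± 18.0 (SD, n = 3), and the intervals of both tumours of mouse 3 did not overlap. After every barcode was thinned to 1500 UMIs, with shallower barcodes left out, the shares were 10.8, 32.5, 11.6 and 20.2% in tumours 1 to 4, in the same order as before thinning.

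Free RNA from lysed cells can place milk transcripts in any barcode. Of macrophage-gated barcodes, which should lack milk transcripts and were limited to at most 1 UMI of Krt8, Krt18 and Epcam, 1.04, 1.45, 0.571 and 1.47% held at least 3 milk UMIs in tumours 1 to 4, at median depths of 1246, 2324, 2181 and 2049 UMIs. Among epithelial-gated barcodes the shares were 20.6, 51.8, 23.1 and 36.9%, at median depths of 2493, 3455.5, 3591 and 3110 UMIs. The limit on luminal UMIs kept out macrophage barcodes with more epithelial RNA, so the background was read only in those that passed it.

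**Figure D1:**
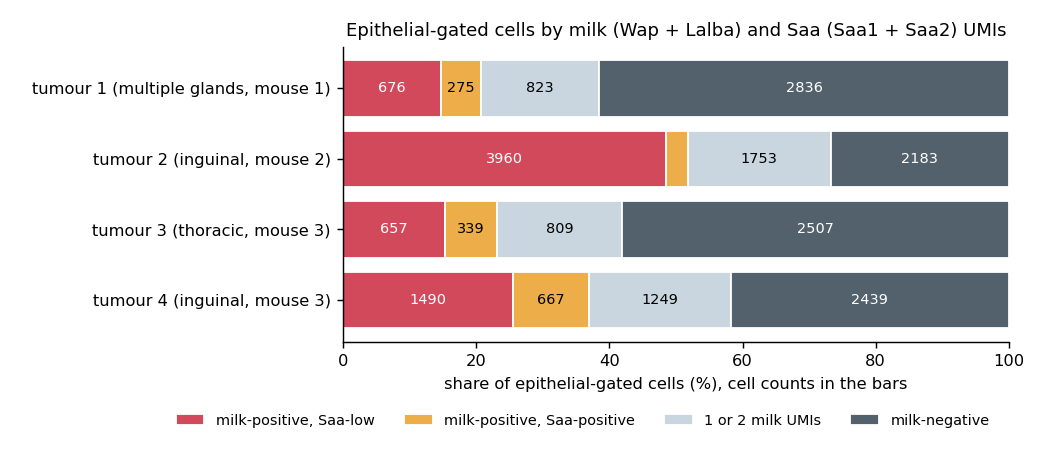
Horizontal bars give the make-up of the epithelial-gated cells of each tumour in percent, with cell counts inside the bars except the narrow Saa-positive bar of tumour 2 (262 cells). The milk-positive Saa-low part is widest in tumour 2, with 3960 of 8158 cells.

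Saa transcripts accompanied the milk genes unevenly. Among all milk-positive cells, 28.9, 6.21, 34.0 and 30.9% held at least 2 Saa UMIs in tumours 1 to 4, so the Saa-positive share was lowest in the tumour with the most milk-positive cells. Among milk-negative cells the Saa-positive share was 8.60, 3.53, 11.9 and 13.8%. Of the 6783 milk-positive Saa-low cells, 5995 held 0 Saa UMIs and 788 held 1. Cells with 3 milk UMIs, just inside the gate, numbered 105, 424, 83 and 203 in tumours 1 to 4. Saa-low cells with 2 milk UMIs, just outside it, numbered 145, 632, 169 and 310.

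The milk signal of these cells was mostly Lalba (ENSMUSG00000022991, chromosome 15, 98480400 to 98482721, minus strand of GRCm38). Lalba made up 95.0% of their Wap and Lalba UMIs, and Wap (ENSMUSG00000000381, chromosome 11, 6635482 to 6638637, minus strand) was found in 1819 cells, or 26.8%. There were 158 cells with Wap and no Lalba. Lalba stood at 3911, 2839, 3238 and 2911 CPM (UMIs in every 1000000 UMIs of the arm, scaled between libraries by the TMM method) in milk-positive Saa-low cells of tumours 1 to 4, and Wap at 363, 88.3, 202 and 297 CPM. Wap was lowest in tumour 2, as was Lalba. The median cell held 8, 10, 9 and 8 milk UMIs, and the highest cell held 100, 185, 187 and 130. Krt8, a luminal keratin of the gate, stood at 618, 611, 637 and 663 CPM in milk-positive Saa-low cells, against 585, 721, 679.8 and 661 CPM in milk-negative cells.

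The 300 bases around the start sites of 4 milk genes (250 before and 50 after, from RefSeq, build GRCm38.p6) are shown because these genes differed so much in level in the same cells. Capitals mark the letters TTCNNNGAA, the core of the site that Stat5 proteins bind. The motif reads the same on both strands, and no other motif was searched. Lalba (chr15:98482634-98482933, minus strand) and Wap (chr11:6638600-6638899, minus strand) chose the cells. Csn2 (chr5:87699376-87699675, minus strand) and Csn1s1 (chr5:87665958-87666257, plus strand) encode beta-casein and an alpha-casein. Csn3 and Btn1a1 had no entry.
Lalba: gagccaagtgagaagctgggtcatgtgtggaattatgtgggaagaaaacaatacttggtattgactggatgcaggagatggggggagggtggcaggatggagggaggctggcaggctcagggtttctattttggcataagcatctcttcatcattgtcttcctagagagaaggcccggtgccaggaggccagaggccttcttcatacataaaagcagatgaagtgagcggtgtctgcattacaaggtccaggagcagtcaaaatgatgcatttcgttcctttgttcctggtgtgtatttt
Wap: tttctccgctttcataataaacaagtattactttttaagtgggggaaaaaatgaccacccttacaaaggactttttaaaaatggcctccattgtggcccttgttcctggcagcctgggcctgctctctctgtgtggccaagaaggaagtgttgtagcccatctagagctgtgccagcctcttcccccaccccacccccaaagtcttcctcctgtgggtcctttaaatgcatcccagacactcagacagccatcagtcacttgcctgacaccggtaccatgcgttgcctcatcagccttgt
Csn2: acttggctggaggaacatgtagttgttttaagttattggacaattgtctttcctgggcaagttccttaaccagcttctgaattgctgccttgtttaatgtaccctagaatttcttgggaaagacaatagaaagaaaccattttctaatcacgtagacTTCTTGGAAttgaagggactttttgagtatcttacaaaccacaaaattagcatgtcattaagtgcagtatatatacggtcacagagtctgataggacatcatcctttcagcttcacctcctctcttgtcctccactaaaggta
Csn1s1: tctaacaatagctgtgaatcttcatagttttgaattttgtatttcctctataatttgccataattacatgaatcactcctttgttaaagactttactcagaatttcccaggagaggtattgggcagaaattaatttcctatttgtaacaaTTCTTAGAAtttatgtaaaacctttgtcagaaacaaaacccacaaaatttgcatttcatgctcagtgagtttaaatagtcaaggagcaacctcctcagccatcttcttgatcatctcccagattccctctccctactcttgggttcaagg
The motif was found 1 time in the Csn2 window, at position -93 from the start site, and 1 time in the Csn1s1 window, at position -100. These letters were not in the Lalba and Wap windows. Of 27025 genes with an entry, 2582 (9.55%) held the motif in this window. The share was 8 of 79 (10.1%) among genes higher in milk-positive Saa-low than in milk-negative cells, 7 of 90 (7.78%) among genes lower, and 750 of 9364 (8.01%) among all genes tested that had an entry.

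Caseins other than Csn3 were found in few of these cells. Csn1s2a was found in 9.02, 2.96, 6.24 and 4.50% of milk-positive Saa-low cells of tumours 1 to 4. Csn3, kappa-casein (ENSMUSG00000001622, chromosome 5, 87925579 to 87932665, plus strand), stood at 6122, 8937, 4711 and 7135 CPM in milk-positive Saa-low cells, against 2766, 7599, 1364 and 2959 CPM in milk-negative cells. It was higher within each tumour, but the ranges over tumours overlapped. The log2 fold change was 1.00 (SE 0.381) and did not pass the test (edgeR quasi-likelihood, adjusted p = 0.459). With each cell thinned to 1500 UMIs, Csn3 was found in 96.1, 97.4, 87.8 and 97.6% of milk-positive Saa-low cells, in 66.4, 91.9, 41.0 and 69.1% of milk-negative cells and in 22.6, 39.2, 13.3 and 23.7% of macrophage-gated barcodes. Thinning left out 114, 0, 20 and 45 milk-positive Saa-low cells, 559, 0, 64 and 137 milk-negative cells and 459, 0, 71 and 65 macrophage-gated barcodes. Unthinned, the shares were 98.2, 99.0, 92.5 and 99.1% of milk-positive Saa-low cells, 73.9, 95.6, 51.6 and 80.5% of milk-negative cells and 17.7, 51.2, 18.8 and 29.2% of macrophage-gated barcodes. Exactly 1 of 5 casein genes was found in 83.5, 94.4, 83.8 and 89.3% of the thinned milk-positive Saa-low cells, and 3 or more in at most 2.85% of any tumour.

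Csn2, beta-casein (ENSMUSG00000063157, chromosome 5, 87692624 to 87699630, minus strand), passed the test but came from very few cells. Its UMIs numbered 114, 200, 19 and 94 in milk-positive Saa-low cells of tumours 1 to 4, against 1, 3, 6 and 6 in milk-negative cells. The log2 fold change was 5.47 (SE 0.463, adjusted p = 0.00569). These UMIs lay in 12, 5, 2 and 17 milk-positive Saa-low cells, 36 of 6783 in all, and 1 cell of tumour 2 held 196 of that tumour's 200. Csn1s1 was spread over more cells, 8.88, 4.04, 2.89 and 8.99% of milk-positive Saa-low cells, against 1.62, 2.66, 1.04 and 3.20% of milk-negative cells. It stood at 214, 17.7, 12 and 69.9 CPM in milk-positive Saa-low cells, against 14.2, 12.5, 3.29 and 19.9 CPM in milk-negative cells. It was higher within each tumour, and its log2 fold change of 2.29 (SE 0.923) did not pass (adjusted p = 0.484). Csn1s2a (0.42, adjusted p = 0.491) and Csn1s2b (0.22, adjusted p = 0.706) did not pass either. Glycam1, a mucin-like milk protein, was under the count filter, with 0, 2, 1 and 0 UMIs in milk-positive Saa-low cells.

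The milk UMIs of a cell ran with Csn3 within every tumour. Saa-low cells with 21 or more milk UMIs had 8692, 10440, 6419 and 8223 CPM of Csn3 in tumours 1 to 4, against 2615, 7922, 1126 and 2656 CPM in Saa-low cells with 0 milk UMIs, on plain UMI totals. Csn1s1 stood at 522, 34.2, 26.2 and 129.5 CPM in the top bin, against 14.4, 13.6, 2.73 and 17.1 CPM with 0 milk UMIs. Both caseins were higher in the top bin of each tumour. Lipa, a lysosomal acid lipase, stood at 102, 101, 108 and 91.4 CPM in the top bin, against 36.5, 45.0, 31.2 and 49.2 CPM with 0 milk UMIs. Birc5, an inhibitor of apoptosis that is made in dividing cells, stood at 24.7, 57.8, 50.7 and 53.3 CPM in the top bin, against 71.8, 134, 129.7 and 84.5 CPM with 0 milk UMIs. Lipa was thus higher and Birc5 lower at high milk UMIs in all 4 tumours. Median depth was 2411, 4243, 3623.5 and 3325 UMIs in the top bin, against 2293, 2857.5, 3423.5 and 2812 UMIs with 0 milk UMIs, and its part in these trends was not tested.

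**Figure D2:**
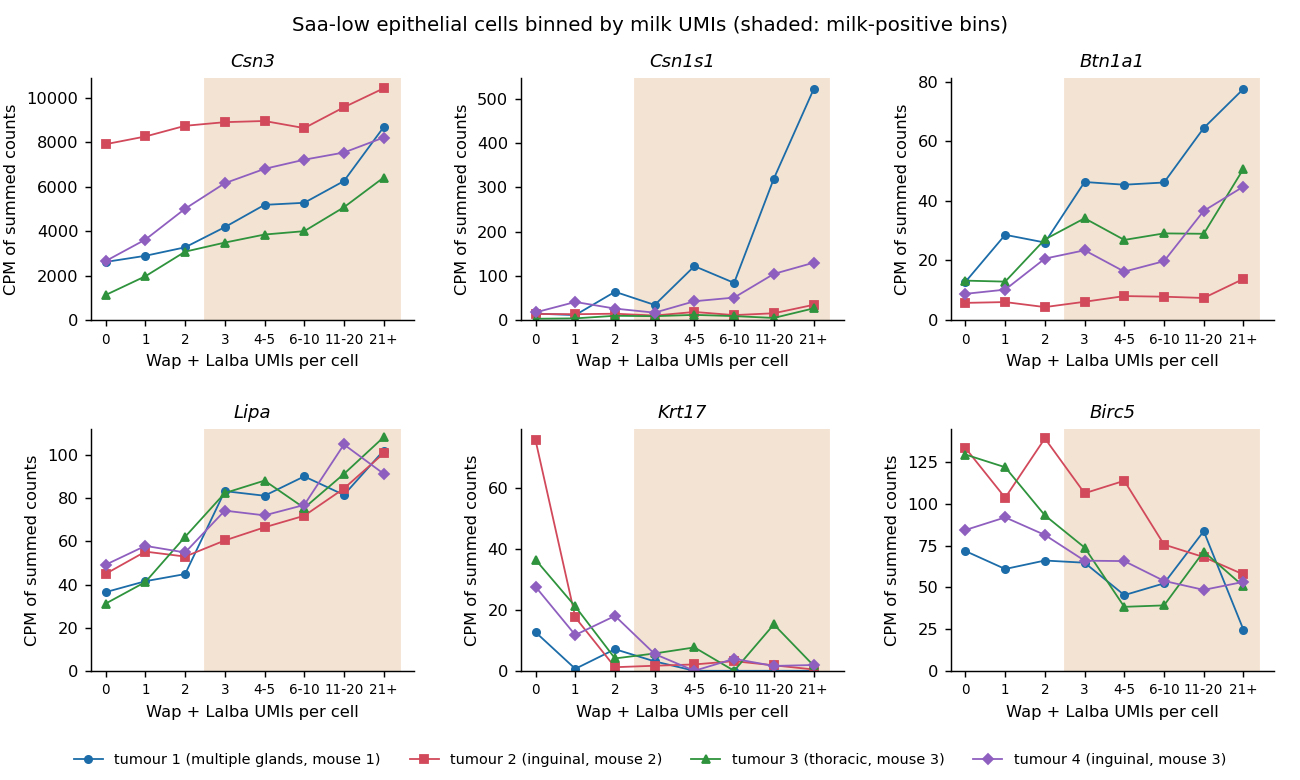
CPM of 6 genes (panels, y axis) against the Wap and Lalba UMIs of the cell (x axis, 8 bins) in Saa-low epithelial cells, with 1 line per tumour and the milk-positive bins shaded. Csn3, Csn1s1, Btn1a1 and Lipa are higher at 21 or more milk UMIs than at 0 in all 4 tumours, while Krt17 and Birc5 are lower.

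Milk-positive Saa-low cells with at least 2 Wap UMIs (129, 323, 90 and 306 cells in tumours 1 to 4) differed in level from those with 0 Wap UMIs (439, 3098, 509 and 918 cells). Both classes met the milk gate, and the values are descriptions. Igfbp5, an insulin-like growth factor binding protein known from mammary involution, stood at 1248, 1500, 1651 and 2025 CPM in cells with Wap, against 2545, 2228, 3037 and 3409 CPM in those with none. Spp1, osteopontin, stood at 1482, 996, 917 and 1467 CPM with Wap, against 2801, 1231, 2494 and 3521 CPM with none. Both secreted proteins had lower transcript levels in the Wap class of every tumour. Birc5 ran the other way, at 76.5, 146, 70.1 and 83.0 CPM with Wap, against 43.9, 66.4, 50.1 and 43.7 CPM with none. Csn2 did so too, at 139.9, 98.1, 37.1 and 23.7 CPM with Wap, against 34.5, 0.216, 0.506 and 10.8 CPM with none. In tumour 2 a single cell held all 196 Csn2 UMIs of the Wap class, and in tumour 3 a single cell held all 18. The Csn2 difference of these tumours thus rested on a single cell each. Median depth moved with this split, at 3163, 5086, 5002 and 3778 UMIs with Wap, against 2305, 3724.5, 3309 and 2860.5 UMIs with none, and its part was not tested.

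Against milk-negative cells of the same mice, milk-positive Saa-low cells had higher levels of Stat5a and Gata3, of the milk fat droplet genes Btn1a1 and Xdh and of the phosphate transporter gene Slc34a2. They had lower levels of 8 of 22 tested proliferation genes, of the basal genes Krt14, Krt17 and Acta2 and of the hormone sensing genes Areg and Cited1. Of 13326 genes tested, 220 passed at an adjusted p under 0.05, which is 1.65%. Of these, 102 were higher (0.765%) and 118 lower (0.885%), the background for the counts of each gene list. The median log2 fold change of all genes tested was 0.00067.

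Stat5a, the prolactin-activated transcription factor (ENSMUSG00000004043, chromosome 11, 100859351 to 100885169, plus strand), stood at 23.6, 22.9, 24.3 and 24.1 CPM in milk-positive Saa-low cells of tumours 1 to 4, against 12.1, 14.4, 13.3 and 13.3 CPM in milk-negative cells. The ranges did not overlap, and the log2 fold change was 0.81 (SE 0.125, adjusted p = 0.00485). Gata3, a luminal transcription factor, stood at 202, 183, 222 and 202 CPM in milk-positive Saa-low cells, against 131, 159, 149.8 and 138 CPM in milk-negative cells. These ranges did not overlap either (log2 fold change 0.45, adjusted p = 0.0253). Of 17 tested genes of prolactin signalling and alveolar regulation 2 rose, Stat5a and Gata3 (0 without mouse 3), 0 fell and 15 did not pass, with a median log2 fold change of 0.33. Elf5, an alveolar transcription factor, was at 0.38 (adjusted p = 0.12) and the prolactin receptor Prlr at 0.30 (adjusted p = 0.15).

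Btn1a1, butyrophilin of the milk fat droplet membrane, stood at 57.9, 8.54, 34.1 and 27.4 CPM in milk-positive Saa-low cells, against 13.8, 5.23, 13.3 and 8.88 CPM in milk-negative cells. It was higher within each tumour although the ranges overlapped, with a log2 fold change of 1.45 (SE 0.209, adjusted p = 0.0141). Xdh, xanthine dehydrogenase, which binds butyrophilin in droplet secretion, stood at 126, 82.8, 114 and 87.6 CPM in milk-positive Saa-low cells, against 85.3, 56.5, 54.4 and 79.0 CPM in milk-negative cells. It too was higher within each tumour (0.56, adjusted p = 0.00453). Of 22 tested milk fat genes these 2 rose (0 without mouse 3), 0 fell and 20 did not pass, with a median of 0.11. Plin2, the droplet coat protein perilipin 2, was at 0.09 (adjusted p = 0.748).

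Slc34a2, a sodium-dependent phosphate transporter, stood at 15.0, 10.7, 16.7 and 14.4 CPM in milk-positive Saa-low cells, against 5.83, 5.10, 6.39 and 5.61 CPM in milk-negative cells. The ranges did not overlap (1.25, SE 0.158, adjusted p = 0.00133). It was the 1 gene to rise among 16 tested genes of lactose synthesis and mineral or water transport, with 0 lower and a median of 0.24. Among 15 tested caseins and other milk proteins, Csn2 passed and 14 did not, with a median of 0.47. Without tumour 2, 6 of 15 rose, with the milk gate set after thinning 5 of 15, with DESeq2 4 of 14, and with 0 UMIs of the other-lineage genes allowed 0 of 14. Ltf, lactoferrin, an iron-binding milk protein, was at 1.11 (adjusted p = 0.401).

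Birc5 and Ube2c of the proliferation list were lower. Birc5 stood at 59.5, 74.4, 54.0 and 55.5 CPM in milk-positive Saa-low cells, against 81.4, 128, 125 and 80.8 CPM in milk-negative cells. The ranges did not overlap, and the log2 fold change was -0.74 (SE 0.10, adjusted p = 0.00187). Ube2c, which tags cyclins for destruction in mitosis, stood at 64.3, 71.0, 82.7 and 59.5 CPM in milk-positive Saa-low cells, against 89.8, 129, 170 and 82.2 CPM in milk-negative cells. It was lower within each tumour, with ranges that overlapped slightly (-0.79, adjusted p = 0.00133). Of 22 tested proliferation genes 8 fell, 0 rose and 14 did not pass, with a median of -0.62. Besides Birc5 and Ube2c these were Mki67 (-0.58), the spindle gene Tpx2 (-1.02), the mitotic kinase Cdk1 (-0.64), its cyclins Ccnb1 (-1.05) and Ccnb2 (-0.79), and Cdc20 (-0.88), which starts anaphase. The call of Mki67 was lost with DESeq2, with tumours as units, at matched depth and among cells with no basal UMI. It was also lost without tumour 1, tumour 2, tumour 3, tumour 4 or mouse 3. In thinned cells, Mki67 was found in 0.89, 1.84, 1.26 and 1.87% of milk-positive Saa-low cells of tumours 1 to 4. The shares of milk-negative cells were 1.89, 2.57, 3.19 and 1.17%, so tumour 4 went the other way. The replication licensing genes Mcm2 (-0.30), Mcm3 (-0.52), Mcm5 (-0.53) and Mcm6 (-0.38) did not pass. Pttg1, securin, and Cenpa, the centromere histone, fell by 0.78 and 0.77 on the log2 scale. Without mouse 3, 0 of these list genes fell, 3 fell without tumour 2, and 4 fell at matched depth.

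Krt14, Krt17 and Acta2 of the basal list, which marks the myoepithelial layer, were lower as well. Krt14, a basal keratin, stood at 24.1, 29.8, 48.9 and 51.9 CPM in milk-positive Saa-low cells, against 32.7, 58.7, 89.6 and 93.4 CPM in milk-negative cells. It was lower within each tumour, though the ranges overlapped (-0.82, SE 0.111, adjusted p = 0.00191). Krt17, another keratin of basal cells (ENSMUSG00000035557, chromosome 11, 100256217 to 100261029, minus strand), had 1, 35, 17 and 14 UMIs in milk-positive Saa-low cells, against 93, 541, 355 and 239 UMIs in milk-negative cells (-4.41, SE 0.444, adjusted p = 0.0231). In tumour 2, 1 milk-negative cell held 299 of the 541. The arms differed in size, and Krt17 was found in 0.148, 0.606, 1.67 and 0.738% of milk-positive Saa-low cells. It was found in 1.02, 1.74, 3.87 and 3.32% of milk-negative cells. Acta2, the smooth muscle actin of myoepithelium, also fell (-1.56, adjusted p = 0.0421), so 3 of 8 tested basal genes fell, 0 rose and 5 did not pass, with a median of -0.95. The basal list summed to 585, 71.7, 564 and 251 CPM in milk-positive Saa-low cells, against 1062, 195, 1248 and 748 CPM in milk-negative cells. Cells with 3 or more UMIs of the basal genes were 0.444, 1.31, 1.98 and 2.15% of milk-positive Saa-low cells, against 1.34, 2.2, 5.31 and 5.04% of milk-negative cells. Cells with any basal UMI were closer in number, at 5.77, 9.70, 14.6 and 12.6%, against 5.15, 11.4, 15.6 and 14.35%, without thinning. With both arms limited to cells with no basal UMI, a choice made after seeing the data, 155 genes passed, and 143 of them were among the 220.

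Areg and Cited1 of the hormone sensing list were lower. Areg, amphiregulin, a growth factor that oestrogen induces in the mammary gland, had 5, 7, 1 and 5 UMIs in milk-positive Saa-low cells, against 89, 17, 13 and 27 UMIs in milk-negative cells (-2.16, SE 0.334, adjusted p = 0.00515). The arms differed in size, at 676, 3960, 657 and 1490 cells against 2836, 2183, 2507 and 2439. Areg was found in 0.296, 0.152, 0.152 and 0.336% of milk-positive Saa-low cells, against 0.952, 0.504, 0.479 and 0.820% of milk-negative cells. The top 5 milk-negative cells of each tumour held 64.0, 64.7, 46.2 and 44.4% of the UMIs of that arm. Areg did not pass at a milk gate of 10 or more UMIs or after thinning. Cited1, a transcriptional co-regulator, fell by 1.79 on the log2 scale (adjusted p = 0.0101). Thus 2 of 6 tested hormone sensing genes fell and 4 did not pass, with a median of -0.43, and 0 of 6 fell without mouse 3. Esr1, the oestrogen receptor, was at -0.28 (adjusted p = 0.711).

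Slpi, Anxa3 and Krt7 were lower too. Slpi, a secreted protease inhibitor (ENSMUSG00000017002, chromosome 2, 164354070 to 164389095, minus strand), stood at 145, 25.4, 109 and 115 CPM in milk-positive Saa-low cells, against 267, 91.8, 303 and 311 CPM in milk-negative cells. It was lower within each tumour with overlapping ranges (-1.39, SE 0.180, adjusted p = 0.0303). Slpi was found in 16.0, 6.19, 17.35 and 15.7% of milk-positive Saa-low cells, against 20.8, 7.10, 17.39 and 25.3% of milk-negative cells. In tumour 3, 1 milk-negative cell held 322 of 3035 UMIs. Slpi did not pass at matched depth, without the top 8% of doublet scores or among cells with no basal UMI. Anxa3, an annexin (ENSMUSG00000029484, chromosome 5, 96793339 to 96845966, plus strand), stood at 40.7, 33.7, 34.4 and 33.8 CPM in milk-positive Saa-low cells, against 80.8, 76.6, 47.6 and 82.6 CPM in milk-negative cells. These ranges did not overlap (-1.03, SE 0.0995, adjusted p = 0.000148). Krt7, a keratin of simple epithelia, stood at 50.9, 37.7, 50.4 and 42.8 CPM in milk-positive Saa-low cells, against 79.2, 80.9, 73.6 and 103 CPM in milk-negative cells. It showed no overlap (-0.92, SE 0.103, adjusted p = 0.000462) and was the 1 of 13 tested luminal keratin and junction genes to pass, at a list median of -0.02. Atp1b1, a subunit of the sodium pump, fell by 0.86 on the log2 scale. Atp1b1 did not pass at a milk gate of 10 or more UMIs, after thinning, at matched depth or without the top 8% of doublet scores. Nor did it among cells with no basal UMI, or without tumour 1, tumour 3, tumour 4 or mouse 3. Sparc, a matrix glycoprotein, and the noncoding RNA Lockd fell by 0.66 and 0.70. The call of Sparc was lost after thinning, at matched depth, without the top 8% of doublet scores and among cells with no basal UMI. It was also lost without tumour 2, tumour 4 or mouse 3.

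Lipa, Fcgbp and Igfbp5 were among the higher genes outside the milk lists. Lipa (ENSMUSG00000024781, chromosome 19, 34492318 to 34527474, minus strand) stood at 91.6, 76.3, 90.3 and 83.1 CPM in milk-positive Saa-low cells, against 40.5, 45.9, 37.6 and 50.6 CPM in milk-negative cells. The ranges did not overlap (0.95, SE 0.101, adjusted p = 0.000309). Fcgbp, a mucin-like protein that binds the Fc part of IgG (ENSMUSG00000047730, chromosome 7, 28071236 to 28120862, plus strand), stood at 61.1, 37.6, 39.9 and 90.4 CPM in milk-positive Saa-low cells, against 35.6, 23.7, 17.1 and 41.8 CPM in milk-negative cells. It was higher within each tumour, and the ranges overlapped (0.98, SE 0.135, adjusted p = 0.00453). Igfbp5 (ENSMUSG00000026185, chromosome 1, 72857932 to 72874884, minus strand) stood at 2292, 2011, 2790 and 2811 CPM in milk-positive Saa-low cells, against 1409, 1670, 1448 and 1913 CPM in milk-negative cells. These ranges did not overlap (0.58, SE 0.0919, adjusted p = 0.00764). Ano1, a calcium-gated chloride channel, had a log2 fold change of 0.77, Clic6, an intracellular chloride channel, of 0.70, and Slco2a1, a prostaglandin transporter, of 0.59. The kinase gene Stk11 was at 0.79, the co-regulator Cited2 at 0.67, the homeobox gene Irx1 at 0.58, the integrin ligand Npnt at 0.60 and Pradc1 at 0.53. Of 18 alternatives, Pradc1 lost its call in 9, Ano1 in 7 and Slco2a1 in 6. For Pradc1 these included DESeq2, thinning, cells with no basal UMI and milk-negative cells of low Saa. For Ano1 they included matched depth, cells with no basal UMI and milk-negative cells of low Saa. Slco2a1 was lost with DESeq2 and, like Irx1 and Npnt, after thinning.

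**Figure D3:**
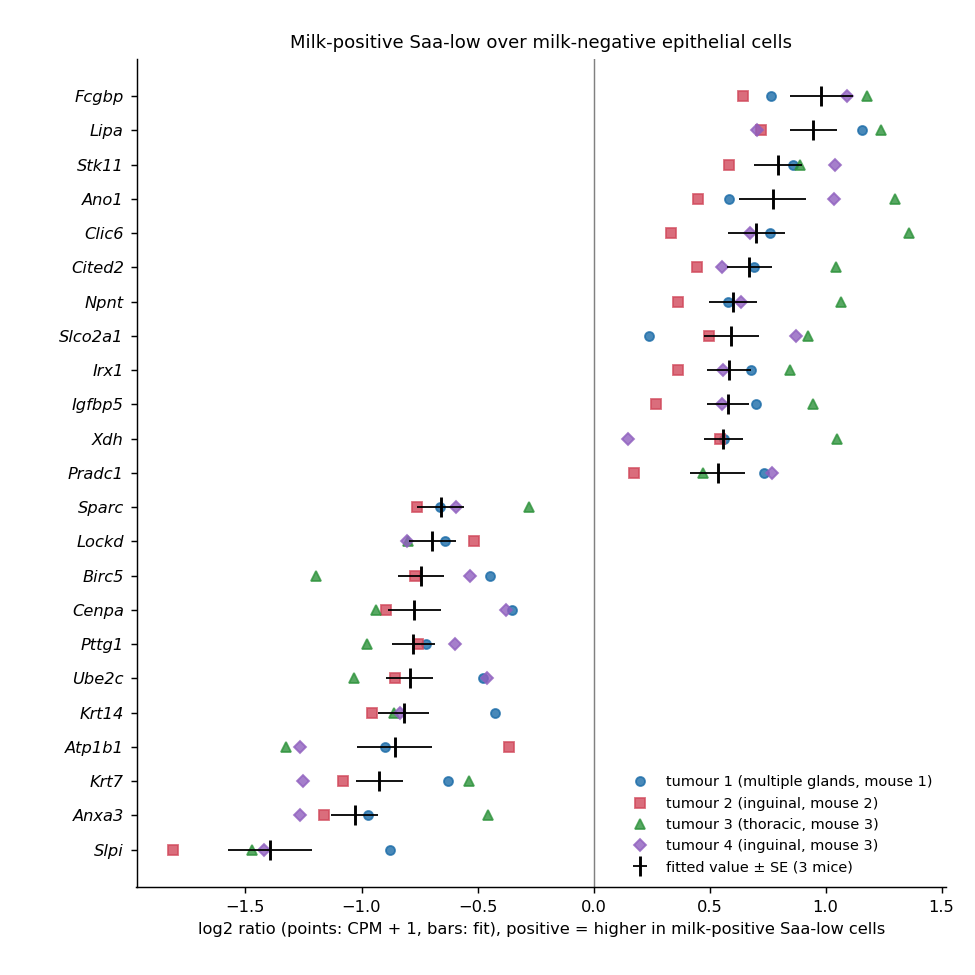
Log2 ratio of milk-positive Saa-low over milk-negative cells (x axis, CPM plus 1) for genes named for the highest and lowest fold changes among those with at least 50 CPM in the higher arm (rows), with 1 point per tumour and the fitted value with its standard error. The plotted fitted values run between 0.98 for Fcgbp and -1.39 for Slpi.

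Stress and antigen presentation genes moved in small numbers. Of 16 tested immediate early genes, which also respond to tissue dissociation, 4 rose, namely Fos (0.47), Fosb (0.43), Jund (0.44) and Egr1 (0.51), with 0 lower and a median of 0.29. Without mouse 3, 0 of them rose, and 1 rose without tumour 1 or without tumour 4. Of 10 tested genes of MHC class I presentation H2-K1 (-0.42) and B2m (-0.41) fell and 8 did not pass, with a median of -0.18. B2m, the light chain of MHC class I, stood at 681, 407, 539.7 and 385 CPM in milk-positive Saa-low cells, against 896, 508, 672 and 586 CPM in milk-negative cells. It was lower within each tumour. Leaving out tumour 1 or tumour 4, 0 MHC class I genes fell.

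Of 7 tested luminal progenitor genes Lbp, a lipopolysaccharide binding protein (0.47), and Cyp24a1, which breaks down vitamin D (1.76), rose, while the receptor kinase Kit (0.18) and the retinoic acid enzyme Aldh1a3 (-0.17) did not pass. Cyp24a1 was sparse, with 12, 21, 7 and 20 UMIs in milk-positive Saa-low cells of tumours 1 to 4, against 10, 3, 12 and 7 in milk-negative cells. These UMIs lay in 53 of 6783 cells, against 28 of 9965. With DESeq2, and without tumour 1, tumour 3, tumour 4 or mouse 3, 0 of the progenitor genes rose. Cyp24a1 was tested in only 8 of 18 alternatives and kept its call in 6, so in some of these settings it had no test. Of 14 tested acute phase and innate defence genes 2 rose, Lbp and S100a9 (1.11), and 3 fell, Saa3 (-2.27), the complement gene C3 (-0.84) and Slpi, with a list median of 0.01. The milk-negative arm kept cells with Saa UMIs. Against milk-negative cells held to the same Saa limit, the log2 fold change of Saa3 was 0.0808 (adjusted p = 0.924). S100a9, a granule protein of neutrophils, came from 6, 21, 12 and 16 milk-positive Saa-low cells. In tumour 4, 1 cell held 292 of 372 UMIs, and in tumour 2, 1 cell held 165 of 335. In tumour 3 it had fewer UMIs per cell in milk-positive Saa-low cells (33 in 657 cells) than in milk-negative cells (173 in 2507). In tumour 4 it was found in 1.07% of milk-positive Saa-low cells, against 1.52% of milk-negative cells. The rise was thus not seen by these measures in every tumour. The UMIs of S100a9 numbered 18, 335, 33 and 372 in milk-positive Saa-low cells, against 21, 45, 173 and 347 in the more numerous milk-negative cells of tumours 1, 3 and 4 and the fewer of tumour 2.

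The remaining lists held few or no calls. Of 24 tested protein folding and secretory pathway genes, the endoplasmic reticulum gene Sdf2l1 rose (0.42) and 23 did not pass, and of 12 involution genes Igfbp5 rose and 11 did not pass. In the oxidative phosphorylation list 0 of 16 genes passed, in glycolysis and hypoxia 0 of 18, and in the interferon response 0 of 14, at medians of -0.06, -0.14 and 0.29. The tdTomato reporter, which marks cells with past or present K14-Cre activity, had a log2 fold change of 0.15 (adjusted p = 0.385).

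**Figure D4:**
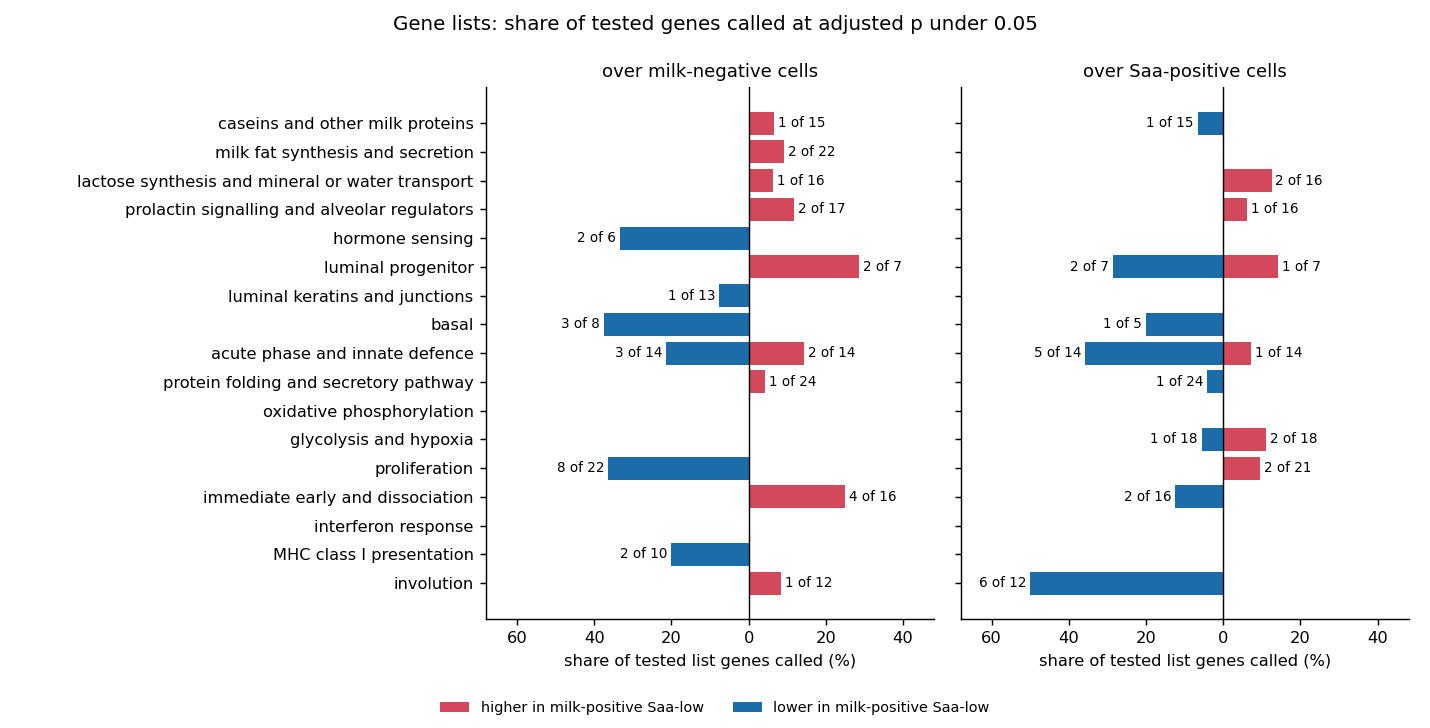
Share of the tested genes of each list (x axis, percent) that passed at an adjusted p under 0.05, higher to the right and lower to the left of 0, for milk-positive Saa-low over milk-negative cells (left panel) and over Saa-positive cells (right panel). Proliferation has 8 of 22 genes lower on the left, and involution has 6 of 12 lower on the right.

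Markers of other cell types were low in both arms. The gate limited 4 such genes, C1qa, C1qb, Col3a1 and Cdh5, and its part in the levels of the others was not tested. The macrophage list summed to 94.8, 91.4, 234 and 105 CPM in milk-positive Saa-low cells, against 116, 94.2, 200.1 and 149 CPM in milk-negative cells. Of its 5 tested genes Cd74, which guides MHC class II proteins to peptide loading, fell (-0.53, adjusted p = 0.0268). The call of Cd74 was lost in 12 of 18 alternatives. It did not pass with DESeq2, with no mouse term, with tumours as units, at matched depth or after thinning. Nor did it with 0 UMIs of the other-lineage genes allowed, at a milk gate of 10 or more UMIs, or against milk-negative cells of low Saa. It was also lost without the top 8% of doublet scores, tumour 1, tumour 4 or mouse 3. The fibroblast list summed to 9.65 to 45.7 CPM in milk-positive Saa-low cells and 14.4 to 69.4 CPM in milk-negative cells. The erythroid list summed to 15.1 to 94.6 CPM in milk-positive Saa-low cells and 88.1 to 157.7 CPM in milk-negative cells. In the fibroblast, endothelial, T cell, mural, adipocyte and erythroid lists 0 genes passed. With 0 UMIs of C1qa, C1qb, Col3a1 and Cdh5 allowed, 208 genes passed, 188 of them among the 220.

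Median depth was 2514.5, 3956, 3622 and 3126 UMIs in milk-positive Saa-low cells, against 2341.5, 2866, 3444 and 2848 UMIs in milk-negative cells. At matched depth 188 genes passed, 134 of them among the 220. The median mitochondrial share was 0.759, 0.958, 0.751 and 0.726% in milk-positive Saa-low cells, against 0.810, 0.929, 0.698 and 0.760% in milk-negative cells. Cells in the top 8% of doublet scores were 10.4, 8.99, 6.39 and 8.46% of milk-positive Saa-low cells, against 5.75, 5.31, 5.94 and 6.56% of milk-negative cells, and 214 genes passed without them. Without mouse 3 the count was 15, without tumour 4 it was 55, and without tumour 1 it was 121. Slpi did not pass without tumour 3, Krt14 and Cenpa without tumour 2, Igfbp5 without tumour 1, and Krt17 and Ano1 without tumour 1 or tumour 4. Of 38 named calls 33 were lost without mouse 3, and with no mouse term in the fit 0 genes passed.

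Compared with milk-positive Saa-positive cells, milk-positive Saa-low cells had lower levels of 5 of 14 tested acute phase genes and 6 of 12 involution genes and higher levels of Rbp7, Car6 and Ccnd1. Of 11293 genes tested, 262 passed (2.32%). Of these, 130 were higher in Saa-low cells (1.15%) and 132 lower (1.17%), with a median log2 fold change of -0.0045 over all genes tested. Both comparisons share the milk-positive Saa-low samples, and CPM were scaled separately in each. Lalba stood at 3965, 2879, 3249 and 2931 CPM in Saa-low cells, against 2873, 2625, 2372 and 2640 CPM in Saa-positive cells, and Wap at 368, 89.6, 203 and 299 CPM in Saa-low cells, against 623, 223, 428 and 399.8 CPM in Saa-positive cells. Lalba was thus higher and Wap lower in the Saa-low cells of every tumour. Csn3 stood at 6205, 9061, 4726 and 7183 CPM in Saa-low cells, against 5928, 10250, 5550 and 7607 CPM in Saa-positive cells, with a log2 fold change of -0.07 (SE 0.0392, adjusted p = 0.444). Of 15 tested caseins and other milk proteins the mucin gene Muc1 fell (-1.0, adjusted p = 0.00137) and 14 did not pass, with a median of -0.50. The count changed when single tumours were left out: 10 of 15 fell without tumour 1, and 8 fell and 1 rose without tumour 2. It was 5 of 14 lower at matched depth and 6 of 15 among cells with no basal UMI. Of 22 milk fat genes 0 passed, against 5 lower without tumour 1 and 2 lower without mouse 3.

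Csn2 had 114, 200, 19 and 94 UMIs in Saa-low cells, against 152, 248, 118 and 115 UMIs in the fewer Saa-positive cells, and its log2 fold change of -2.44 (SE 0.731) did not pass (adjusted p = 0.392). Galk1, which phosphorylates galactose, rose by 0.46 on the log2 scale and Aqp5, a water channel, by 0.39, as 2 of 16 tested lactose and transport genes. Id2, a transcriptional regulator of alveolar development, rose by 0.27, as 1 of 16 tested alveolar regulators. Stat5a was at 0.10 (adjusted p = 0.840), and Elf5 at -0.29 (adjusted p = 0.0856).

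Lcn2 and Lrg1 were lower in the Saa-low cells. Lcn2, lipocalin 2, which binds bacterial siderophores, stood at 6851, 6719, 7293 and 6970 CPM in Saa-low cells, against 9206, 9957, 9311 and 9438 CPM in Saa-positive cells. The ranges did not overlap (-0.46, SE 0.0359, adjusted p = 8.17e-10). Lrg1, a secreted glycoprotein of the acute phase (ENSMUSG00000037095, chromosome 17, 56119678 to 56122001, minus strand), stood at 527, 626, 612 and 697 CPM in Saa-low cells, against 839.9, 1279, 1146 and 1202 CPM in Saa-positive cells. These ranges did not overlap either (-0.85, SE 0.0572, adjusted p = 2.27e-10). Saa3 (-4.09), C3 (-1.42) and Lbp (-0.68) fell too, so 5 of 14 tested acute phase genes fell and 1 rose, with a median of -0.82. Without tumour 1, 10 of 14 fell, without tumour 2 10, without mouse 3 9, and with DESeq2 8 of 11. The gene that rose was S100a9 (3.33), and Saa-positive cells held 0, 1, 17 and 11 of its UMIs; without tumour 4, 0 genes of the list rose. C4b, a complement gene, stood at 49.4, 20.8, 28.4 and 23.6 CPM in Saa-low cells, against 73.5, 51.5, 63.9 and 48.5 CPM in Saa-positive cells (-1.05, adjusted p = 2.10e-06). Cd14, the lipopolysaccharide co-receptor, fell by 0.73 on the log2 scale, while Aldh1a3 rose by 1.85.

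The involution list holds genes active when the gland regresses after weaning. Of 12 tested 6 fell, 0 rose and 6 did not pass, with a median of -0.36, against 3 lower with DESeq2, 3 with no count filter and 8 without tumour 1. Clu, the chaperone clusterin, stood at 203, 220.2, 205 and 181 CPM in Saa-low cells, against 288, 392, 293 and 282 CPM in Saa-positive cells. The ranges did not overlap (-0.66, SE 0.0695, adjusted p = 5.09e-07). Tgfb3, a growth factor induced by milk stasis, stood at 90.7, 39.6, 94.2 and 85.6 CPM in Saa-low cells, against 121, 73.1, 154 and 132 CPM in Saa-positive cells. It was lower within each tumour (-0.67, adjusted p = 3.53e-05). The lysosomal proteases Ctsb (-0.34) and Ctsl (-0.45), the transcription factor Cebpd (-0.53) and the protease inhibitor Timp1 (-0.68) made up the rest. Igfbp5 was at -0.37 and did not pass (adjusted p = 0.577). Ddit3, the stress transcription factor CHOP, fell by 0.46 as the 1 of 24 secretory pathway genes to pass. The call of Ddit3 was lost in 11 of 16 alternatives. It did not pass with DESeq2, with no count filter, with no mouse term, at matched depth or with no basal UMI. Nor did it at a milk gate of 10 or more UMIs, or with 0 UMIs of the other-lineage genes allowed. It was also lost without the top 8% of doublet scores, tumour 2, tumour 4 or mouse 3. Of 16 tested immediate early genes Jund (-0.33) and Egr1 (-0.35) fell, against 7 lower without tumour 1, 0 without mouse 3 and 0 with DESeq2.

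Genes named for their low fold changes included relatives of Wap. Wfdc12 stood at 44.5, 7.59, 14.6 and 15.7 CPM in Saa-low cells, against 97.6, 22.1, 106 and 33.8 CPM in Saa-positive cells (-1.63, SE 0.143, adjusted p = 3.06e-08). Wfdc12 was found in 2.02% of Saa-low and 7.45% of Saa-positive cells. The top 5 Saa-positive cells of each tumour held 43.0, 80.0, 63.0 and 39.1% of the UMIs of that arm. The call was lost with tumours as units and at a milk gate of 10 or more UMIs. Wfdc3 stood at 69.5, 32.8, 65.5 and 61.6 CPM in Saa-low cells, against 110.2, 93.0, 173 and 134 CPM in Saa-positive cells (-1.20, SE 0.110, adjusted p = 5.19e-07). Both encode proteins with the disulphide core that Wap shares, and both were lower within each tumour. Prtn3, a serine protease best known from neutrophil granules, was at -1.44, and Ndrg1, which responds to low oxygen, at -0.79. Fcgbp stood at 61.9, 38.2, 40.0 and 91.0 CPM in Saa-low cells, against 116, 76.4, 137 and 175 CPM in Saa-positive cells (-1.03, SE 0.0902, adjusted p = 1.25e-08). It was thus lower in Saa-low than in Saa-positive cells of each tumour, and higher than in milk-negative cells. Krt14 fell here too (-0.55, adjusted p = 0.00493), as 1 of 5 tested basal genes.

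Rbp7, a carrier of retinol inside cells (ENSMUSG00000028996, chromosome 4, 149449687 to 149454978, minus strand), was among the higher genes with at least 50 CPM in the higher arm. It stood at 57.0, 330, 18.2 and 115 CPM in Saa-low cells, against 9.45, 128, 14.4 and 35.6 CPM in Saa-positive cells (1.55, SE 0.109, adjusted p = 4.63e-10). It was higher within each tumour, and both arms were highest in tumour 2. Ccnd1, cyclin D1, stood at 93.4, 267, 119.6 and 171 CPM in Saa-low cells, against 80.8, 159, 73.4 and 102 CPM in Saa-positive cells (0.66, SE 0.0883, adjusted p = 2.28e-05). Car6, a secreted carbonic anhydrase, stood at 423, 142, 629 and 209.5 CPM in Saa-low cells, against 274, 91.9, 202 and 171 CPM in Saa-positive cells (0.75, SE 0.0735, adjusted p = 1.01e-07). Both were higher within each tumour, with overlapping ranges. The collagen chain Col11a1 was at 0.87, Slco2a1 at 0.84, the copper transporter gene Slc31a2 at 0.69, the claudin gene Cldn10 at 0.64 and the G protein subunit gene Gng11 at 0.56. Of 21 tested proliferation genes Ube2c (0.41) and Stmn1 (0.33), which destabilises microtubules, rose and 19 did not pass, with a median of 0.35. The number that rose was 10 of 20 at matched depth and 9 of 22 without tumour 1, while 0 of 9 rose with DESeq2, 0 of 21 without mouse 3 and 0 of 21 among cells with no basal UMI. Of 18 tested glycolysis and hypoxia genes Aldoa (0.37) and Pgk1 (0.33) rose and Ndrg1 fell.

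**Figure D5:**
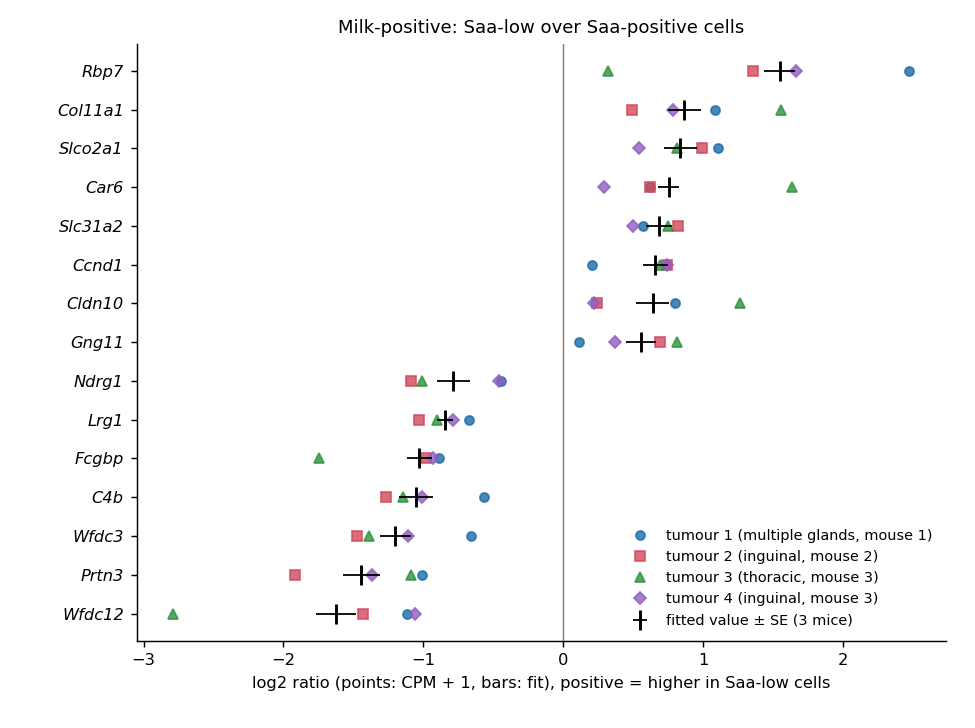
Log2 ratio of milk-positive Saa-low over milk-positive Saa-positive cells (x axis, CPM plus 1) for genes named for the highest and lowest fold changes among those with at least 50 CPM in the higher arm (rows), with 1 point per tumour and the fitted value with its standard error. The plotted fitted values run between 1.55 for Rbp7 and -1.63 for Wfdc12.

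Saa-low cells were shallower, with medians of 2514.5, 3956, 3622 and 3126 UMIs, against 3501, 5997, 4944 and 4250 UMIs in Saa-positive cells. At matched depth 237 genes passed, 156 of them among the 262. The macrophage list summed to 96.1, 92.7, 235 and 105 CPM in Saa-low cells, against 107, 94.1, 99.0 and 109 CPM in Saa-positive cells. Tyrobp, an adaptor of myeloid cells, rose (0.64, adjusted p = 0.0198). The call of Tyrobp was lost with 0 UMIs of the other-lineage genes allowed, with DESeq2 and at matched depth. It was also lost without tumour 3 or mouse 3. The part of macrophage RNA in the other changes was not tested. Cells with 3 or more basal UMIs were 0.444, 1.31, 1.98 and 2.15% of Saa-low cells, against 1.09, 3.05, 5.6 and 4.50% of Saa-positive cells, and 160 genes passed among cells with none. The count was 745 without tumour 1, 104 without mouse 3 and 0 with no mouse term in the fit. Rbp7, Car6 and Wfdc12 did not pass without tumour 4.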

How the data were processed

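The deposited files hold UMI counts per gene and cell barcode, not normalized, for 4 libraries. Cell Ranger 2.2.0, FastQC and the builds mm10 and GRCm38 are named, per the submitters' processing notes, and the filters used upstream are not given in the sources used here. Dead cells were removed on a column, per the labels' protocols. The members and gene lists (24 lists, 305 genes) were chosen with earlier results of these data known.

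Counts were summed per mouse and arm and tested with edgeR 4.0.16 (filterByExpr, TMM, robust quasi-likelihood; R 4.3.3), with the mouse as a block because both arms came from the same mice, which pairs them by design. Gate genes were left out of the adjustment (Benjamini-Hochberg, threshold 0.05). The standard error is the absolute log2 fold change over the square root of F. CPM were TMM-scaled within each comparison, while CPM of milk bins and Wap classes used plain UMI totals. The code was tested on simulated data. Named genes had at least 50 CPM in the higher arm and the same direction in 3 of 3 mice (12 highest and 12 lowest against milk-negative cells, 8 and 8 against Saa-positive cells), plus the leading gene of each list and milk genes; 1 gene that met this rule in each comparison is not reported here. Other list genes that passed are named because they make up a count, and a few further genes (Spp1, the Mcm genes, Gata3 and Esr1 among them) were chosen after their values were seen. Alternatives were other size factors, DESeq2 1.42.0, no count filter, no block, tumours as units, other gates, matched depth, doublet scores (scanpy 1.11.5) and leaving out each tumour or mouse 3.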

Additional observations from a re-analysis of the deposited data

Results flagged for a closer look

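In 104 groups of 4 tumours, 1 tumour was checked for lying far from the other 3, which chance alone gives in about 1 in 20 groups. The median mitochondrial share of milk-positive Saa-low cells was 0.9585% in tumour 2, against 0.7257% to 0.7588% in the others. The log2 CPM ratio of Slc34a2, milk-positive Saa-low over milk-negative cells, was 0.939 in tumour 2, against 1.22 to 1.259 in the others. The log2 CPM ratio of Ccnd1, Saa-low over Saa-positive cells, was 0.2059 in tumour 1, against 0.6967 to 0.7428 in the others. That of Fcgbp was -1.748 in tumour 3, against -0.9829 to -0.889 in the others. Each kept its direction in all 4 tumours where it is a ratio.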

How the results depend on the processing

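Against milk-negative cells, 220 genes passed (102 higher, 118 lower). DESeq2 called 116 (51 higher, 65 lower; 92 shared), a milk gate of 10 or more UMIs 105 (41 and 64), and thinning left 46 higher. Leaving out a tumour gave 55 to 230 genes (16 to 135 higher, 39 to 115 lower), with 55 without tumour 4 and 121 without tumour 1, and leaving out mouse 3 gave 15 (4 and 11). Against Saa-positive cells, 262 genes passed (130 higher, 132 lower). DESeq2 called 62 (22 and 40; 48 shared), tumours as units gave 399 (198 and 201), no count filter left 80 lower, leaving out the highest doublet scores left 84 higher, and cells with no basal UMI, chosen after seeing the data, gave 160 (77 and 83). Leaving out a tumour gave 194 to 745 genes (97 to 385 higher, 97 to 360 lower), with 745 without tumour 1, and leaving out mouse 3 gave 104 (30 and 74).

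Without the mouse block, edgeR called 0 genes in either comparison (0 higher, 0 lower), with 550 against milk-negative and 425 against Saa-positive cells at an unadjusted p under 0.05, so every call rests on the pairing of arms within mice. The cause of these shifts was not tested. The other settings kept both totals within 1.5 times. The share of milk-positive Saa-low cells, 28.1%, was 20.0% after thinning and 17.9% to 34.8% without 1 tumour.

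Of the 38 named calls against milk-negative cells, 5 were lost with DESeq2, 10 at matched depth, 14 after thinning and 33 without mouse 3. Of 23 against Saa-positive cells, 4 were lost with DESeq2 and 6 without mouse 3. Saa3 turned to 0.081 against milk-negative cells of low Saa. The other log2 fold changes that changed sign had not passed. Against milk-negative cells, and with ranges over leaving out each tumour or mouse 3, these were Lcn2 (0.030 with tumours as units, 0.015 with no other-lineage UMI, 0.010 after thinning, 0.088 with low Saa, range -0.12 to 0.12), Rgs5 (0.35 at the higher milk gate, 0.25 without high doublet scores, 0.50 after thinning, range -1.03 to 0.035), Aldh1a3 (0.042 with DESeq2, range -0.54 to 0.52), Csn1s2a (-0.14 without the block), Fabp4 (-1.66 to 0.015), Plin2 (-0.035 to 0.27), Dcn (-1.02 to 0.021) and Kit (-0.14 to 0.47). Against Saa-positive cells these were Pecam1 (-0.0032 without the block, range -0.57 to 0.56), Stat5a (-0.26 at the higher milk gate), Csn1s2b (-0.0041 without high doublet scores), Kit (-0.0065 to 0.30), Prlr (-0.25 to 0.0048) and Btn1a1 (-0.49 to 0.051). With 3 mice, precision is limited, and counts of sparse genes such as Csn2 rest on few cells.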
